A study of Phyllostachys violascens with 18 samples.

Results

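Mature leaves of the typical plant of the bamboo Phyllostachys violascens were compared with its immature leaves, across all genes with enough counts to test. The comparison rested on 6 of the 18 libraries of the series, 3 from typical mature and 3 from typical immature leaves, picked by the stage and plant named in the sample titles. The other libraries came from young leaves of the typical plant and from young, immature and mature leaves of the variant ‘Flavistriatus’, and all plants grew in a greenhouse. No treatment, engineered allele or plant age is given in the labels, and both groups here come from the typical plant. Whether the replicate libraries stem from different plants is not stated. The p-values therefore describe the variation among libraries alone, part of which may be technical. That variation was estimated over all 18 libraries, young and variant leaves included. Of 42520 genes, 37595 passed the filter on low counts and were tested with edgeR, and a gene was called at an adjusted p under 0.05.

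A grass leaf grows from its base. Cells divide, lengthen as their walls are loosened and built up, lay down a waxy cuticle, and fill their chloroplasts with the light-harvesting machinery. A full-grown leaf stops expanding, exports sugar to the rest of the plant, stores starch by day and breaks it down by night, and later recycles its proteins under the influence of ethylene and abscisic acid.

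Total counts lay between 34542595 and 56317444 in the 6 libraries. The first principal component of these libraries held 60.5% of the variance and parted mature from immature leaves. Mature libraries 2 and 3 were near alike, whereas mature library 1 stood apart from both, and the immature libraries differed more among themselves than mature 2 and 3 did. No pair of libraries agreed within sampling noise, so all were kept as separate libraries. The tissue field of the labels names culms while the titles name leaves. Antenna genes, which mark mesophyll, the green tissue of a leaf, summed to 17543 to 20537 FPKM in mature leaves and to 34798 to 41245 FPKM in immature leaves. FPKM, the unit of the levels below, is a count scaled for gene length and library size. Markers of xylem and secondary wall summed to 34.2 to 54.8 FPKM in mature leaves and to 116 to 263 FPKM in immature leaves, and 26 and 19 of the 52 found were listed at 0 there. Markers of meristem and dividing cells summed to 529 to 584 FPKM in mature leaves and to 406 to 484 FPKM in immature leaves. In whole leaves, fewer cells of a type and less RNA per cell cannot be told apart.

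The test called 11058 genes, 29.4% of those tested, with 15131 genes at an unadjusted p under 0.05. Of the calls, 4956 (13.2% of tested genes) were higher and 6102 (16.2%) lower in mature leaves. In edgeR's folds, falls were larger than rises. The median size of a call was 1.06 on the log2 scale for genes that rose and 2.03 for genes that fell, and 379 genes rose but 1664 fell by at least 4 log2 units. No floor on counts was set for these sizes, though 3922 tested genes were listed at 0 throughout a group. Genes both called and at least 2-fold apart made up 7.02% of tested genes on the higher side and 12.4% on the lower side. FPKM of the 2 groups did not overlap in 15126 genes (40.2%). The larger number of lower calls did not hold on deposited FPKM, where limma called 5992 genes higher (18.8%) and 4818 lower (15.1%). This put 55.4% of calls on the higher side, beside 44.8% in edgeR. With near-alike libraries of a group summed to 1 library, a choice made after seeing the data, edgeR called 2824 genes higher (7.22%) and 3654 lower (9.34%). A fit of the 6 typical mature and immature libraries alone called 2488 of 31741 tested genes higher and 4722 lower. Such fits, and fits with near-alike libraries summed, are named below for some lists only. Where neither is named, the count of a list may still have moved by over 1.5 times.

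**Figure D1:**
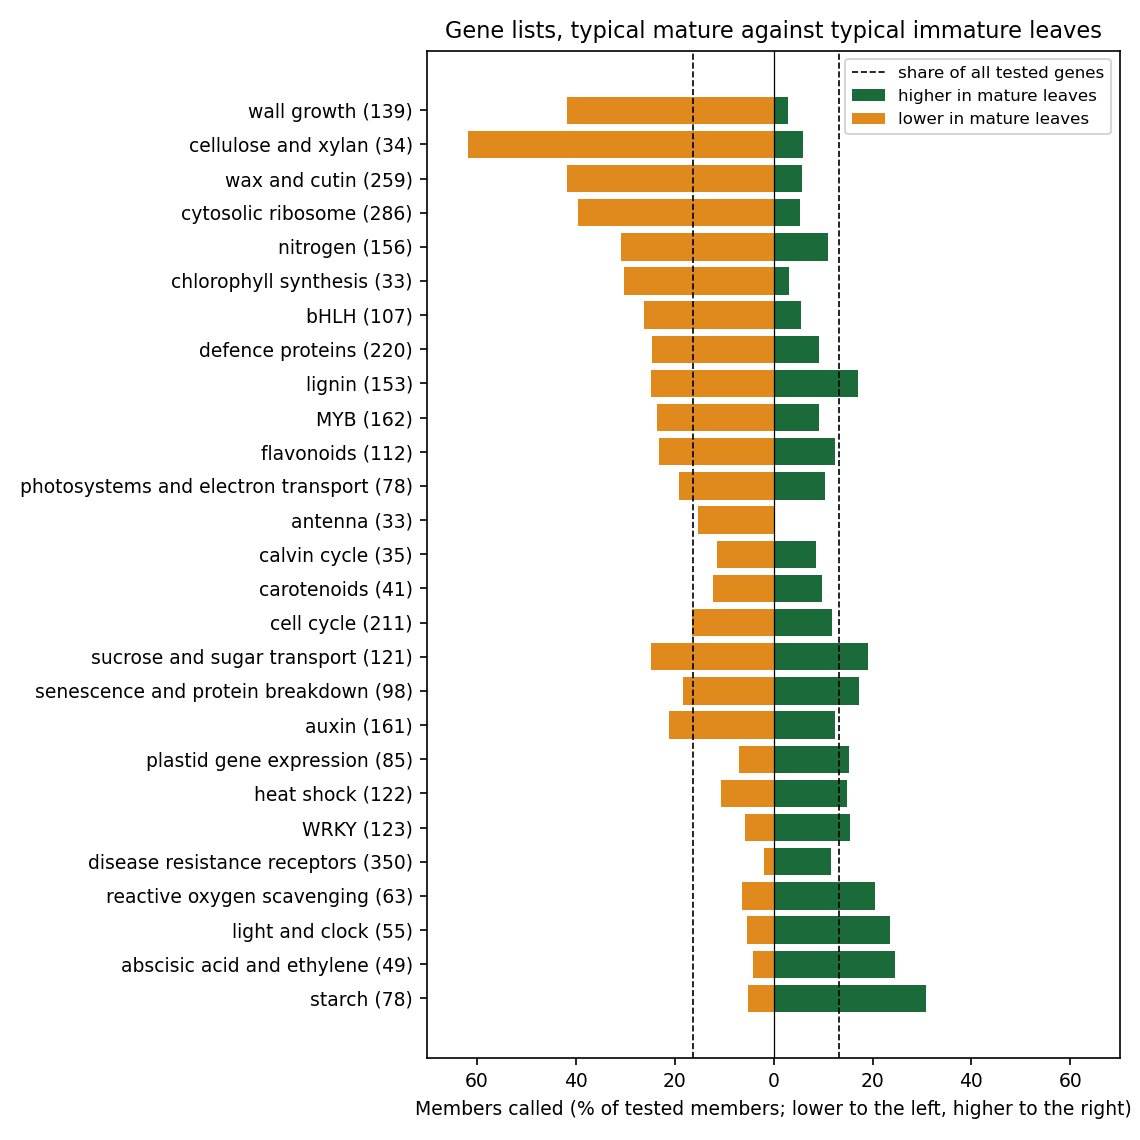
Share of tested members of 27 gene lists that were called higher (green, to the right) or lower (orange, to the left) in typical mature leaves against typical immature leaves, in percent, with the number of tested members in brackets. Dashed lines mark the share of all tested genes, 13.2% higher and 16.2% lower; wall growth, cellulose and xylan, wax and cutin and the cytosolic ribosome reach farthest to the left, and starch farthest to the right.

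Genes that loosen and build the primary wall stood far lower in mature leaves. Of 139 tested genes for expansins, xyloglucan endotransglucosylases, pectinesterases, polygalacturonases and endoglucanases, 58 fell and 4 rose, where 16.2% and 13.2% of all tested genes did so. Their median log2 fold change was -2.84, or -1.99 where a group at 0 was given 3 counts as its floor, beside 0.01 and 0.05 over all tested genes. In limma the median was -0.29 on log2(FPKM + 1) and -0.9 on log2(FPKM + 0.1), scales that understate the change of low genes. The 58 lower became 36 in a fit of the 6 libraries alone, 34 with near-alike libraries summed and 38 in limma on log2(FPKM + 1). Summed over the list, they stood at 120, 117 and 114 FPKM in mature leaves, against 2607, 671 and 233 FPKM in immature leaves. The mature libraries lay close together, while immature library 1 had the highest sum and immature library 3 the lowest, so that the distance to mature leaves depended on the immature library. Leaving out 1 typical library at a time gave 48 to 65 members lower. The 4 that rose became 1 without immature 3, and 2 without mature 2 or mature 3.

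Expansin-B3 (PH02Gene02936), one of the proteins that let wall polymers slip past each other, had 2.14, 0.201 and 0.923 FPKM in mature leaves, against 606, 97.7 and 8.47 FPKM in immature leaves. The groups did not overlap, and immature library 1 was far above the other two. It fell by 7.8 on the log2 scale (SE 1.66, edgeR adjusted p = 0.00261). Another member of the family, expansin-B11 (PH02Gene42691), had 0.447, 0.0915 and 0.162 FPKM in mature leaves, against 184, 36.9 and 1.52 FPKM in immature leaves, again highest in immature 1. Endoglucanase 7 (PH02Gene04869), which cuts glucan chains, had 1.25, 1.3 and 1.37 FPKM in mature leaves, against 7.72, 22.6 and 10.9 FPKM in immature leaves, a log2 fold change of -3.48 (SE 0.39, edgeR adjusted p = 2.2e-05). Expansin-B6 (PH02Gene01648) and a xyloglucan endotransglucosylase (PH02Gene43773), which cuts and rejoins xyloglucan, were listed at 0 in all 3 mature libraries. In immature leaves expansin-B6 had 105, 12 and 3.78 FPKM and the endotransglucosylase 48.7, 2.2 and 0.247 FPKM.

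Genes that make cellulose and xylan had the largest share of members lower among the 37 gene lists. Of 34 tested members 21 fell (61.8%) and 2 rose (5.88%), beside 16.2% and 13.2% of all tested genes. The median log2 fold change was -2.73 in edgeR and -1.15 in limma on log2(FPKM + 1). The list summed to 50, 76.6 and 81.8 FPKM in mature leaves, against 887, 882 and 655 FPKM in immature leaves. Here the immature libraries were close to each other and every one lay far above the mature ones. Leaving out 1 typical library at a time kept 17 to 21 members lower. The 2 that rose became 0 without immature 1, immature 2 or mature 3, and 1 without mature 2. A probable cellulose synthase A catalytic subunit 3 (PH02Gene49673, scaffold 10, 47553992 to 47559709, minus strand), of the complex that spins cellulose, had 7.22, 13.4 and 13.8 FPKM in mature leaves, against 282, 228 and 208 FPKM in immature leaves. It fell by 4.48 (SE 0.77, edgeR adjusted p = 0.000541). Subunit 9 (PH02Gene24930), which in rice serves the secondary wall, had 1.29, 1.84 and 1.57 FPKM in mature leaves, against 24.7, 59 and 17.3 FPKM in immature leaves (log2 fold change of -4.51, SE 0.87, edgeR adjusted p = 0.00131). A glucuronosyltransferase that decorates xylan (PH02Gene10692) stood at 5.2, 9.56 and 9.82 FPKM in mature leaves and at 47.8, 56.7 and 58.2 FPKM in immature leaves (log2 fold change of -2.83, SE 0.34, edgeR adjusted p = 4.02e-05). A probable mixed-linked glucan synthase 6 (PH02Gene46338), of the enzymes that make the mixed-linked glucan typical of grass walls, had 0.312, 0.0137 and 0.120 FPKM in mature leaves, against 76.1, 55.1 and 44.4 FPKM in immature leaves.

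Other wall proteins were among the 15 largest falls of a filtered set of 4220 genes. That set held called, described genes with no count of 0 in the 6 libraries and groups that did not overlap in FPKM. A mean of at least 10 FPKM was also required. A proline-rich protein (PH02Gene00492) had 1.27, 0.274 and 1.53 FPKM in mature leaves, against 570, 572 and 349 FPKM in immature leaves, and fell by 8.99 (SE 1.34, edgeR adjusted p = 0.000196). Dirigent protein 1 (PH02Gene46616), of a family that guides the coupling of monolignols, had 1.49, 0.379 and 1.61 FPKM in mature leaves, against 318, 873 and 487 FPKM in immature leaves. Fasciclin-like arabinogalactan proteins are glycoproteins of the cell surface. Number 1 (PH02Gene44294) had 0.249, 0.166 and 0.0331 FPKM in mature leaves, against 42.9, 92.3 and 52 FPKM in immature leaves. Number 2 (PH02Gene12804) had 0.624, 0.177 and 0.350 FPKM in mature leaves, against 166, 161 and 94.9 FPKM in immature leaves. In each of these 4 genes every immature value lay far above every mature one. Groups that did not overlap were a condition of the choice, so this separation adds no support.

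**Figure D2:**
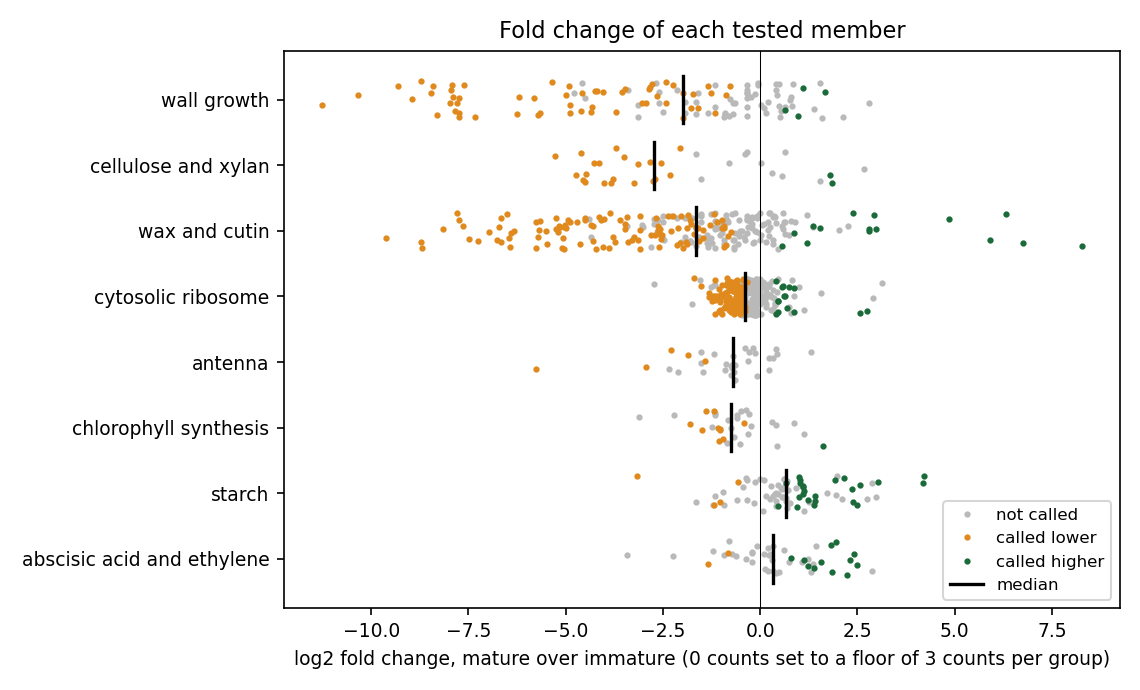
Log2 fold change of each tested member, mature over immature leaves of the typical plant, for 8 gene lists, where a group at 0 was given 3 counts as its floor. Each point is a gene, green where called higher and orange where called lower, and the black bar is the median, at -1.99 for wall growth, -2.73 for cellulose and xylan, -1.64 for wax and cutin and 0.67 for starch.

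Lignin genes moved both ways. Of 153 tested genes of the phenylpropanoid and lignin steps 38 fell and 26 rose, shares of 24.8% and 17% beside 16.2% and 13.2% of all tested genes, with 24 lower and 17 higher with near-alike libraries summed. Hydroxycinnamoyltransferase 2 (PH02Gene48963), of the family that moves hydroxycinnamoyl groups towards lignin, had 2.43, 4.23 and 4.75 FPKM in mature leaves, against 46.8, 65.9 and 39.1 FPKM in immature leaves (log2 fold change of -3.83, SE 0.36, edgeR adjusted p = 5.9e-06). Caffeoyl-CoA O-methyltransferase (PH02Gene12695), which methylates lignin precursors, had 18.1, 26.4 and 25.6 FPKM in mature leaves, against 252, 234 and 144 FPKM in immature leaves (log2 fold change of -3.26, SE 0.41, edgeR adjusted p = 5.12e-05). A putative ferulate 5-hydroxylase (PH02Gene15790), which opens the branch to syringyl lignin, went the other way, with 7.96, 15.3 and 17.8 FPKM in mature leaves and 4.89, 2.73 and 3.09 FPKM in immature leaves (log2 fold change of 1.84, SE 0.32, edgeR adjusted p = 0.000565). The most abundant member, a phenylalanine ammonia-lyase (PH02Gene27016), the entry enzyme of the pathway, had 36.9, 178 and 192 FPKM in mature leaves, against 454, 584 and 396 FPKM in immature leaves. Its call was marginal (edgeR adjusted p = 0.0468) and was lost without any 1 of the 6 libraries, at 0.0603 to 0.133. Of 112 flavonoid genes 26 fell and 14 rose. The lower count was 16 without immature 1 and 17 without mature 3, and the higher count was 25 without variant mature 3, which shares the estimate of spread.

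Cuticle genes split into a large group that fell and a small group that rose steeply. Of 259 tested genes for waxes, cutin and lipid transfer 108 fell (41.7%) and 15 rose (5.79%), beside 16.2% and 13.2% of all tested genes. The lower count was 67 with near-alike libraries summed, where 9.34% of all tested genes fell, and 70 in limma on log2(FPKM + 1). The median log2 fold change of the list was -1.66 in edgeR and -0.41 in that limma fit. The list summed to 1281, 1429 and 1392 FPKM in mature leaves, against 3467, 3025 and 1771 FPKM in immature leaves. A non-specific lipid-transfer protein (PH02Gene35874), one of the small secreted carriers of epidermis, had 2.56, 2.24 and 3.14 FPKM in mature leaves, against 1057, 318 and 136 FPKM in immature leaves (log2 fold change of -7.63, SE 1.2, edgeR adjusted p = 0.000282). Ketoacyl-CoA synthases lengthen the fatty acids of waxes, and members of this family went in opposite directions. Synthase 20 (PH02Gene25435) had 1.22, 0.626 and 0.362 FPKM in mature leaves, against 17.1, 8.68 and 5.51 FPKM in immature leaves, and synthase 1 (PH02Gene14140) had 3.55, 3.19 and 2.84 FPKM in mature leaves, against 20.9, 15.6 and 10.3 FPKM in immature leaves. Synthase 20 fell by 3.87 (SE 0.49, edgeR adjusted p = 5.68e-05) and synthase 1 fell by 2.36 (SE 0.31, edgeR adjusted p = 6.47e-05).

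Ketoacyl-CoA synthase 12-like (PH02Gene10989) instead had 32.7, 55.6 and 54.4 FPKM in mature leaves, against 0.560, 0.205 and 0.430 FPKM in immature leaves. It rose by 6.77 (SE 0.61, edgeR adjusted p = 4.65e-06). A second gene of that name (PH02Gene10988), next to it in number and on the same scaffold 3, had 9.49, 22.8 and 22.9 FPKM in mature leaves, against 0.335, 0.0746 and 0.209 FPKM in immature leaves; reads could be shared between the pair. Synthase 17 (PH02Gene27712) stood at 53.5, 55.6 and 51.8 FPKM in mature leaves and at 0.546, 1.42 and 0.542 FPKM in immature leaves (log2 fold change of 5.92, SE 0.61, edgeR adjusted p = 1.14e-05). Eceriferum-u (PH02Gene41075, scaffold 21, 63351595 to 63354942, minus strand), in barley a cytochrome P450 that acts on the diketones of surface wax, had 31.3, 136 and 150 FPKM in mature leaves, against 0.211, 0.284 and 0.417 FPKM in immature leaves. Its log2 fold change of 8.27 (SE 0.91, edgeR adjusted p = 1.9e-05) led all genes named among the 15 largest rises of the same filtered set. A fatty acid desaturase (PH02Gene44250, DES3-like) had 38.1, 63.4 and 71.4 FPKM in mature leaves, against 0.483, 0.524 and 0.588 FPKM in immature leaves (log2 fold change of 6.64, SE 0.62, edgeR adjusted p = 5.79e-06). In mature library 1 all of these but synthase 17 lay below mature 2 and 3. Every mature value was above every immature one, which was a condition of the choice among the largest changes. Markers of guard cells and epidermis include ketoacyl-CoA synthases and lipid-transfer proteins of this list. Of 87 tested markers 7 were higher (8.05%) and 32 lower (36.8%), beside 13.2% and 16.2% of all tested genes. The markers summed to 633 to 736 FPKM in mature leaves and to 640 to 1933 FPKM in immature leaves, and 32 and 17 of the 96 found were listed at 0 there. The part of epidermal cell number in the wax and cutin values was not tested.

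**Figure D3:**
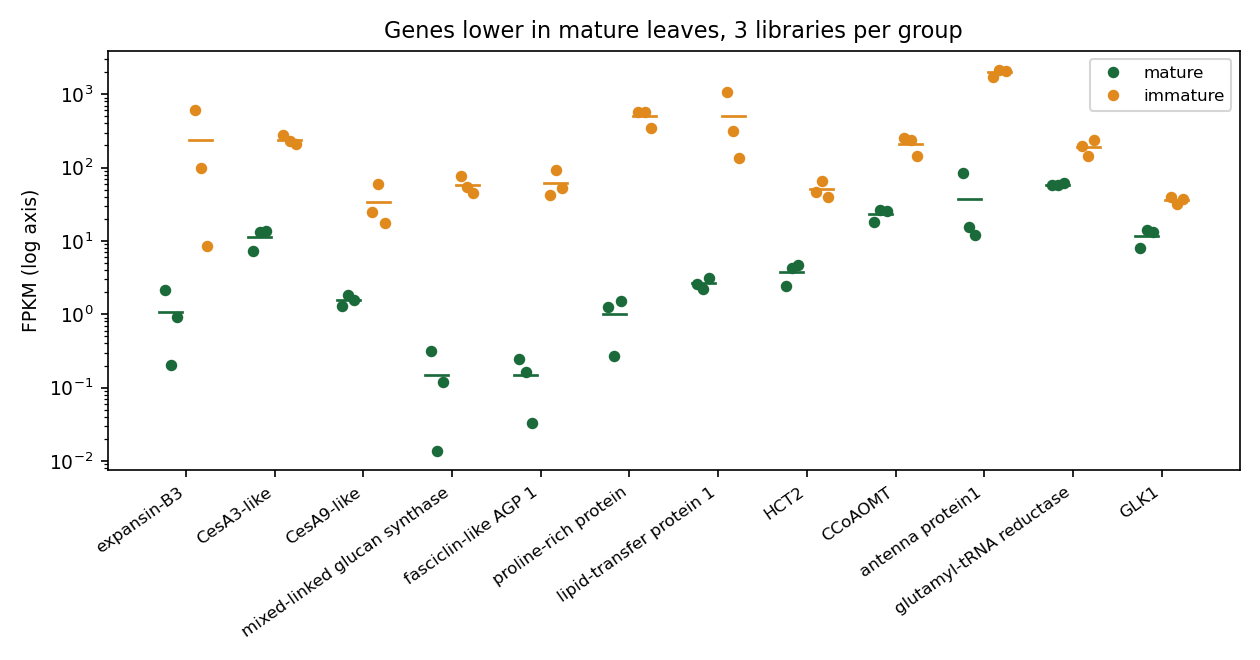
Deposited FPKM on a log axis of 12 genes lower in mature leaves; each point is a library, 1 to 3 from left to right, with mature in green on the left and immature in orange on the right, and each bar is the mean. No green point reaches an orange point of the same gene, and expansin-B3 shows the spread of immature leaves, from 606 FPKM in library 1 to 8.47 FPKM in library 3.

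Many ribosomal protein genes fell, by small steps. Of 286 tested genes for proteins of the cytosolic ribosome 113 fell and 15 rose, with a median log2 fold change of -0.39, and 62 fell with near-alike libraries summed. They summed to 7434, 9414 and 9795 FPKM in mature leaves, against 11173, 9705 and 9814 FPKM in immature leaves, sums that overlapped. Gene by gene, FPKM of the 2 groups did not overlap in 133 of the 286, beside 40.2% of all tested genes. Over the 3 stages the drop lay earlier, with sums averaging 38085 FPKM in young, 10231 FPKM in immature and 8881 FPKM in mature leaves. Ribosomal protein S25-4 of the small subunit (PH02Gene34497) had 38.1, 56.8 and 55.8 FPKM in mature leaves, against 119, 110 and 88.5 FPKM in immature leaves (log2 fold change of -1.17, SE 0.13, edgeR adjusted p = 2.06e-05). S26 (PH02Gene34772) had 16.9, 22.1 and 20.5 FPKM in mature leaves, against 42.2, 33 and 35.1 FPKM in immature leaves. An S8-like gene (PH02Gene42751) rose, with 191, 205 and 208 FPKM in mature leaves, against 106, 95.3 and 109 FPKM in immature leaves (log2 fold change of 0.88, SE 0.13, edgeR adjusted p = 0.000156). Ribosomal proteins are encoded by near-identical gene copies, between which reads can be shifted. Cell cycle genes showed no common direction, with 35 of 211 tested members lower and 25 higher, near the 16.2% and 13.2% of all tested genes, and with 23 lower and 12 higher in a fit of the 6 libraries alone. One of those that fell, a cyclin-dependent kinase F-4 (PH02Gene03772), had 7.65, 11 and 12.2 FPKM in mature leaves, against 33.2, 32.1 and 30.7 FPKM in immature leaves (log2 fold change of -1.73, SE 0.21, edgeR adjusted p = 4.47e-05). For histones and DNA replication 12 of 110 were lower and 18 higher, and the higher count was 5, 7 and 9 without immature 1, 2 and 3 and 9 and 10 without mature 2 and 3, and 6 in a fit of the 6 libraries alone.

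Antenna genes, whose proteins hold chlorophyll to catch light, stood lower in mature leaves as a sum, yet few passed the test one by one. Their sum was 17543, 20537 and 20469 FPKM in mature leaves, against 35547, 41245 and 34798 FPKM in immature leaves, after a mean of 4323 FPKM in young leaves. Of 33 tested members 5 fell, 15.2% beside 16.2% of all tested genes. The count depended on the libraries in the fit, with 18 lower without variant mature 3, 19 lower in a fit of the 6 typical libraries alone, and 3 without mature 2 or mature 3. The light harvesting chlorophyll a/b binding protein1 gene (PH02Gene27441, scaffold 14, 53495198 to 53497484, plus strand) had 84.7, 15.7 and 11.9 FPKM in mature leaves, against 1718, 2151 and 2079 FPKM in immature leaves. It fell by 5.75 (SE 0.98, edgeR adjusted p = 0.000516) and averaged 38.4 FPKM in young leaves. A gene of LHCII type 1 (PH02Gene45538), the main antenna of photosystem II, had 416, 1325 and 1433 FPKM in mature leaves, against 4115, 6761 and 3356 FPKM in immature leaves (log2 fold change of -2.28, SE 0.5, edgeR adjusted p = 0.00327). The most abundant member (PH02Gene49412) had 925, 1740 and 1775 FPKM in mature leaves, against 5349, 7333 and 5093 FPKM in immature leaves. The groups of the last gene did not overlap, but its difference of -2.1 (SE 0.85) did not pass in the edgeR fit of all 18 libraries (adjusted p = 0.0754). It passed in DESeq2 (adjusted p = 0.0192) and in the edgeR fit of the 6 libraries alone (adjusted p = 0.00267). Antenna genes are near-identical copies, so the split of reads among them is uncertain.

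Photosystem and electron transport genes went both ways, in shares near the background (19.2% lower and 10.3% higher, beside 16.2% and 13.2% of all tested genes). Of 78 tested members 15 fell and 8 rose, and the lower count was 9 without immature 2, 8 without mature 2 or mature 3, and 36 without variant mature 3, with 34 in a fit of the 6 libraries alone and 2 with near-alike libraries summed. Both named copies of the photosystem II 10 kDa polypeptide, a small protein of the oxygen-evolving side, rose. The first (PH02Gene09620) had 953, 1991 and 2147 FPKM in mature leaves, against 61.5, 42.9 and 62.7 FPKM in immature leaves (log2 fold change of 4.82, SE 0.59, edgeR adjusted p = 4.32e-05). The second (PH02Gene08265) had 3648, 6651 and 7098 FPKM in mature leaves, against 1570, 1328 and 1096 FPKM in immature leaves (log2 fold change of 2.03, SE 0.43, edgeR adjusted p = 0.00238). In both copies mature library 1 was the lowest of the mature libraries. A lumenal subunit of the chloroplast NDH complex (PH02Gene23115), which carries electrons around photosystem I, had 34.7, 22.8 and 22.2 FPKM in mature leaves, against 5.13, 5.43 and 3.84 FPKM in immature leaves (log2 fold change of 2.4, SE 0.32, edgeR adjusted p = 8.77e-05).

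Few carbon fixation genes passed the test, with 11.4% of Calvin cycle genes lower and 8.57% higher, beside 16.2% and 13.2% of all tested genes. Of 35 tested genes of the Calvin cycle 4 were lower and 3 higher, with 0 to 2 lower when 1 typical library was left out, 2 without any 1 of the variant immature libraries, 7 without variant mature 3, and 5 higher without immature 3. Subunit A of the chloroplast glyceraldehyde-3-phosphate dehydrogenase (PH02Gene02213) had 357, 398 and 383 FPKM in mature leaves, against 777, 872 and 968 FPKM in immature leaves. Its call (log2 fold change of -1.29, SE 0.43, edgeR adjusted p = 0.0357) was lost without any 1 of the 6 libraries, at 0.0533 to 0.0888. The most abundant member, a chloroplast aldolase (PH02Gene46367), had 1987, 1944 and 1938 FPKM in mature leaves, against 2194, 1156 and 2976 FPKM in immature leaves, groups that overlap. For photorespiration 6 of 39 were lower and 3 higher, with 5 higher without immature 3. Peroxisomal 2-hydroxy-acid oxidase GLO2 (PH02Gene01837), which oxidises glycolate, rose to 13.2, 11.1 and 11.2 FPKM in mature leaves, against 2.39, 2.23 and 2.83 FPKM in immature leaves (log2 fold change of 2.17, SE 0.24, edgeR adjusted p = 2.3e-05).

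More chlorophyll synthesis genes fell than rose. Of 33 tested members 10 fell (30.3%) and 1 rose (3.03%), beside 16.2% and 13.2% of all tested genes. The median log2 fold change was -0.74. The lower count was 6 without immature 1, 5 without immature 3, 6 without mature 1, 5 without mature 2 and 6 without mature 3. It was 21 without variant mature 3, 17 in a fit of the 6 libraries alone, 16 in DESeq2 and 2 with near-alike libraries summed. That summed fit called 9.34% of all tested genes lower. A glutamyl-tRNA reductase (PH02Gene14878), the controlled first step of the pathway, had 57.8, 57.1 and 60.8 FPKM in mature leaves, against 198, 144 and 239 FPKM in immature leaves (log2 fold change of -1.81, SE 0.24, edgeR adjusted p = 8.37e-05). Magnesium chelatase subunit ChlH (PH02Gene25454), which puts magnesium into the ring, had 320, 232 and 213 FPKM in mature leaves, against 559, 387 and 771 FPKM in immature leaves, a difference of -1.24 that just missed the threshold (SE 0.45, edgeR adjusted p = 0.0512), and passed in DESeq2 (adjusted p = 0.0173) and in the edgeR fit of the 6 libraries alone (adjusted p = 0.0273). The cyclase that closes the last ring (PH02Gene16028), the most abundant of the list, had 663, 720 and 733 FPKM in mature leaves, against 1014, 872 and 1111 FPKM in immature leaves (difference of -0.59, SE 0.5, edgeR adjusted p = 0.403, and 0.0409 in the fit of the 6 libraries alone). GLK1 is a transcription factor that turns on chlorophyll and antenna genes. One GLK1 gene (PH02Gene22330) had 8.13, 14.2 and 13.1 FPKM in mature leaves, against 39.3, 31.6 and 37.4 FPKM in immature leaves (log2 fold change of -1.71, SE 0.27, edgeR adjusted p = 0.000265). A second GLK1 gene (PH02Gene18738) had 23.8, 38.5 and 39.7 FPKM in mature leaves and 27.3, 20.4 and 39.3 FPKM in immature leaves, groups that overlap.

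Chlorophyll breakdown genes were split, with 26.7% higher and 13.3% lower, beside 13.2% and 16.2% of all tested genes. Of 15 tested members 4 rose and 2 fell, and the 4 were 2 without immature 1 or immature 2. Chlorophyllase-2 (PH02Gene23026), which takes off the phytol tail, had 35.3, 34.7 and 31.9 FPKM in mature leaves, against 15, 13.3 and 16.3 FPKM in immature leaves (log2 fold change of 1.11, SE 0.16, edgeR adjusted p = 0.000133). Pheophorbide a oxygenase (PH02Gene11023), which opens the ring, had 10.4, 15.8 and 16.8 FPKM in mature leaves, against 8.71, 7.36 and 9.64 FPKM in immature leaves (log2 fold change of 0.64, SE 0.17, edgeR adjusted p = 0.0105, and 0.052 without mature 3 and 0.0821 in the fit of the 6 libraries alone). STAY-GREEN LIKE (PH02Gene39882), a relative of the enzyme that pulls magnesium from chlorophyll, fell instead. It had 7.73, 7.51 and 7.49 FPKM in mature leaves, against 57.5, 73.3 and 55.1 FPKM in immature leaves (log2 fold change of -3.11, SE 0.24, edgeR adjusted p = 1.18e-06).

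Carotenoid genes as a list were near the background, with 5 of 41 lower and 4 higher. The lower count was 3 without immature 1, immature 3, mature 2, mature 3 or variant immature 1 and 8 without variant mature 3, and the higher count was 2 without immature 1. The single steps differed widely. Zeta-carotene desaturase (PH02Gene31041), a step towards lycopene, had 2.6, 3.11 and 3.11 FPKM in mature leaves, against 12.1, 15 and 8.27 FPKM in immature leaves (log2 fold change of -2.09, SE 0.36, edgeR adjusted p = 0.000561). A zeaxanthin cleavage dioxygenase (PH02Gene22046), of the family that cuts carotenoids, had 92.1, 89.6 and 81.9 FPKM in mature leaves, against 17.4, 13.4 and 21.7 FPKM in immature leaves (log2 fold change of 2.24, SE 0.22, edgeR adjusted p = 8.05e-06). The abundant gene for phytoene synthase (PH02Gene29430), which opens the pathway, had 147, 138 and 137 FPKM in mature leaves, against 253, 206 and 344 FPKM in immature leaves (difference of -1.01, SE 0.44, edgeR adjusted p = 0.1, and 0.0159 in the fit of the 6 libraries alone). Genes of plastid transcription and RNA handling had 13 of 85 members higher (15.3%) and 6 lower (7.06%), beside 13.2% and 16.2% of all tested genes. The higher share was thus near the background. Counts were 5 to 12 higher and 0 to 3 lower when 1 typical library was left out, and 2 higher in a fit of the 6 libraries alone. Proteins of the plastid ribosome had 3 of 49 genes higher and 2 lower, below the shares of all tested genes, with a median log2 fold change of -0.38. The lower count was 10 in a fit of the 6 libraries alone and 13 without variant mature 3. The most abundant gene, for protein L1 (PH02Gene16107) had 411, 479 and 497 FPKM in mature leaves, against 114, 89.7 and 149 FPKM in immature leaves (log2 fold change of 1.89, SE 0.29, edgeR adjusted p = 0.000231). Protein L12 (PH02Gene40966) had 27.8, 25.9 and 27.4 FPKM in mature leaves, against 57.4, 87.3 and 52.6 FPKM in immature leaves (log2 fold change of -1.36, SE 0.38, edgeR adjusted p = 0.0145, and 0.0645 without immature 2 and 0.0529 without mature 2). Protein L9 (PH02Gene10907) had 99.8, 55.4 and 54.5 FPKM in mature leaves, against 114, 141 and 124 FPKM in immature leaves (log2 fold change of -0.92, SE 0.29, edgeR adjusted p = 0.0263). The call of L9 was lost without immature 2 (0.077), mature 2 (0.111) or mature 3 (0.108) and in the fit of the 6 libraries alone (0.0535).

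Starch genes had the largest share of members higher in mature leaves among the 37 gene lists in the fit of all 18 libraries. Of 78 tested members 24 rose and 4 fell, 30.8% and 5.13% beside 13.2% and 16.2% of all tested genes, and 17 to 29 rose when 1 typical library was left out. In a fit of the 6 libraries alone 14 of 78 rose, a smaller share than the 10 of 49 abscisic acid and ethylene genes. The 4 that fell were 2 without immature 1, immature 3, mature 2 or mature 3. Phosphoglucan phosphatase LSF1 (PH02Gene30365), which acts in starch breakdown, had 38.8, 57.8 and 65.3 FPKM in mature leaves, against 20.2, 16.4 and 20.3 FPKM in immature leaves (log2 fold change of 1.41, SE 0.2, edgeR adjusted p = 0.000116). Phosphoglucan, water dikinase (PH02Gene38586), which phosphorylates the granule surface, had 15.3, 22.7 and 21.8 FPKM in mature leaves, against 8.54, 8.27 and 11.2 FPKM in immature leaves (log2 fold change of 0.99, SE 0.14, edgeR adjusted p = 0.000161). Beta-amylase releases maltose, and the named gene for it (PH02Gene08693) fell, with 11, 22.1 and 27 FPKM in mature leaves, against 167, 212 and 124 FPKM in immature leaves (log2 fold change of -3.17, SE 0.5, edgeR adjusted p = 0.000287). The most abundant starch gene, also a beta-amylase (PH02Gene44774), had 453, 554 and 571 FPKM in mature leaves, against 1072, 1371 and 943 FPKM in immature leaves, and its call (edgeR adjusted p = 0.0428) was lost without any 1 of the 6 libraries.

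Genes for sucrose metabolism and sugar transport had 30 of 121 members lower (24.8%) and 23 higher (19%), beside 16.2% and 13.2% of all tested genes. Polyol transporter 5-like (PH02Gene11130), of a family of sugar alcohol carriers, had 72.8, 60.7 and 58.6 FPKM in mature leaves, against 6.3, 3.66 and 6.23 FPKM in immature leaves (log2 fold change of 3.49, SE 0.34, edgeR adjusted p = 7.89e-06). The sugar transporter SWEET1a (PH02Gene07867) had 0.321, 0.200 and 0.178 FPKM in mature leaves, against 15.4, 11.5 and 6.24 FPKM in immature leaves (log2 fold change of -5.62, SE 0.49, edgeR adjusted p = 3.57e-06). A vacuolar invertase (PH02Gene05689), which splits stored sucrose, had 1.47, 1.29 and 1.18 FPKM in mature leaves, against 14.9, 9.74 and 17 FPKM in immature leaves (log2 fold change of -3.49, SE 0.34, edgeR adjusted p = 8.14e-06). Nitrogen genes fell more often than they rose, in 48 and 17 of 156 tested members, with 10 higher without immature 1, and 25 lower and 8 higher with near-alike libraries summed. The nitrogen shares were 30.8% lower and 10.9% higher, beside the same background. Cytosolic glutamine synthetase 1-1 (PH02Gene04855), which fixes ammonium into glutamine, had 71.8, 61.1 and 62.5 FPKM in mature leaves, against 172, 174 and 138 FPKM in immature leaves (log2 fold change of -1.38, SE 0.14, edgeR adjusted p = 8.81e-06). The plastid enzyme (PH02Gene00428), the most abundant of the list, had 506, 601 and 626 FPKM in mature leaves and 524, 561 and 838 FPKM in immature leaves, groups that overlap. A component of the high affinity nitrate transporter (PH02Gene04050) had 26.6, 14.7 and 13 FPKM in mature leaves, against 2.52, 0.916 and 2.89 FPKM in immature leaves (log2 fold change of 3.03, SE 0.75, edgeR adjusted p = 0.00688).

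**Figure D4:**
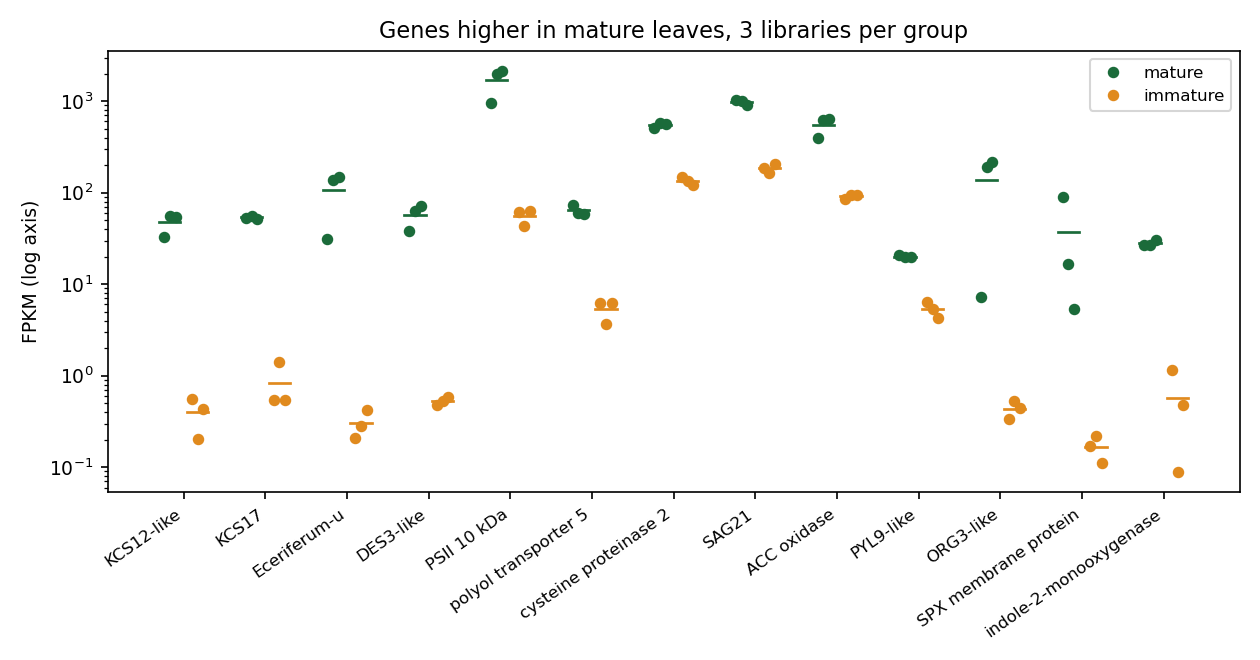
Deposited FPKM on a log axis of 13 genes higher in mature leaves; each point is a library, 1 to 3 from left to right, with mature in green on the left and immature in orange on the right, and each bar is the mean. Every green point lies above the orange points of its gene, and mature library 1 departs from mature 2 and 3 for the ORG3-like gene (7.22 against 193 and 216 FPKM) and the SPX membrane protein (90.1 against 16.8 and 5.38 FPKM).

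Genes of senescence and protein breakdown stood higher in sum, while about as many members fell as rose. Of 98 tested members 17 rose and 18 fell, near the background, with 10 lower without immature 2 and 10 higher in a fit of the 6 libraries alone. The list summed to 3982, 3786 and 3664 FPKM in mature leaves, against 2177, 2388 and 1934 FPKM in immature leaves. Its abundant members carried the sum. SENESCENCE-ASSOCIATED GENE 21 (PH02Gene40131), a stress protein of mitochondria, had 1037, 1002 and 902 FPKM in mature leaves, against 188, 166 and 208 FPKM in immature leaves (log2 fold change of 2.31, SE 0.22, edgeR adjusted p = 6.35e-06). Cysteine proteinase 2 (PH02Gene03034) had 504, 579 and 570 FPKM in mature leaves, against 148, 133 and 122 FPKM in immature leaves (log2 fold change of 1.95, SE 0.17, edgeR adjusted p = 3.65e-06). The protease oryzain alpha (PH02Gene45588) had 154, 179 and 185 FPKM in mature leaves, against 313, 262 and 261 FPKM in immature leaves (log2 fold change of -0.78, SE 0.13, edgeR adjusted p = 0.000541). Of 25 tested markers of senescent leaves 2 rose and 1 fell, with 1 to 3 in each direction when 1 typical library was left out. They summed to 79.5, 246 and 269 FPKM in mature leaves and to 183, 191 and 135 FPKM in immature leaves, and 13 and 11 of the 37 found were listed at 0 there. NAC transcription factor 29-like (PH02Gene22100) was one that rose, with 9.03, 16 and 16.4 FPKM in mature leaves, against 4.87, 0.426 and 1.92 FPKM in immature leaves (log2 fold change of 2.43, SE 0.52, edgeR adjusted p = 0.00267, and 0.0537 in the fit of the 6 libraries alone). The 1 marker that fell was STAY-GREEN LIKE (PH02Gene39882), the most abundant of those tested (log2 fold change of -3.11, SE 0.24, edgeR adjusted p = 1.18e-06).

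Of 49 tested abscisic acid and ethylene genes 12 rose (24.5%, beside 13.2% of all tested genes), 2 fell (4.08%, beside 16.2%) and the others did not pass, and 11 to 13 rose when 1 typical library was left out. The 2 became 1 or 0 without any 1 of the 6 typical libraries. The list summed to 1157 to 1517 FPKM in mature leaves, lowest in library 1, against 502 to 741 FPKM in immature leaves, after a mean of 240 FPKM in young leaves. ACC oxidase (PH02Gene22087), the enzyme of the last step to ethylene, had 395, 619 and 636 FPKM in mature leaves, against 85.6, 94.4 and 94.4 FPKM in immature leaves (log2 fold change of 2.49, SE 0.27, edgeR adjusted p = 1.63e-05). The abscisic acid receptor PYL9-like (PH02Gene16833) had 20.7, 19.6 and 19.6 FPKM in mature leaves, against 6.41, 5.35 and 4.26 FPKM in immature leaves (log2 fold change of 1.82, SE 0.18, edgeR adjusted p = 9.44e-06). Of 63 genes that scavenge reactive oxygen 13 rose and 4 fell, with 8 higher without immature 1, 1 or 2 lower without immature 2, immature 3, mature 2 or mature 3, and 9 lower without variant mature 3. Catalase B (PH02Gene19703), which breaks down hydrogen peroxide, had 27.4, 48.6 and 52.1 FPKM in mature leaves, against 11.9, 12.1 and 10.2 FPKM in immature leaves (log2 fold change of 1.8, SE 0.17, edgeR adjusted p = 6.38e-06). Heat shock genes showed 18 of 122 higher (14.8%) and 13 lower (10.7%), beside 13.2% and 16.2% of all tested genes, so that the higher share was near the background. The lower count was 7 without immature 2 and 6 without mature 2 or mature 3. Chaperones among those that rose were chloroplast HSP90-5 (PH02Gene05953), with 21.1, 22 and 22.4 FPKM in mature leaves, against 6.85, 9.11 and 8.85 FPKM in immature leaves, and an HSP70 (PH02Gene35944), with 120, 241 and 262 FPKM in mature leaves, against 72.8, 52.6 and 77.2 FPKM in immature leaves.

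**Figure D5:**
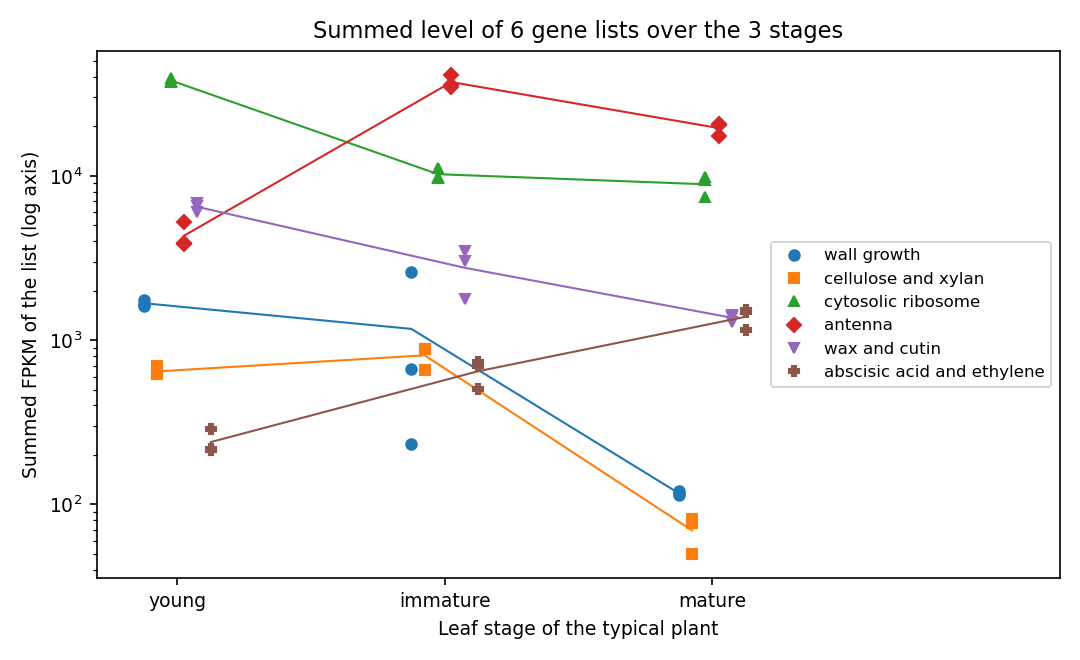
Summed FPKM of 6 gene lists in each library of the typical plant by leaf stage (young, immature, mature), on a log axis; points are libraries and lines join the means. The antenna sum is highest in immature leaves (mean 37197 FPKM) and lies at 19516 FPKM in mature leaves, the ribosome sum drops mainly between young and immature leaves, and the abscisic acid and ethylene sum is highest in mature leaves.

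Defence proteins and disease resistance receptors differed in their balance. Of 220 defence proteins 54 fell and 20 rose, and 32 rose without variant mature 3. Of 350 receptor genes 41 rose and 7 fell, 11.7% and 2.00% beside 13.2% and 16.2% of all tested genes. The 41 were 24 and 23 without immature 1 and 2 and 21 and 19 without mature 2 and 3, and 17 with near-alike libraries summed, and the 7 were 3 without mature 2. A glucan endo-1,3-beta-glucosidase (PH02Gene51009), of the enzymes that cut callose, had 0.701, 1.21 and 1.54 FPKM in mature leaves, against 30.8, 37.7 and 18.6 FPKM in immature leaves (log2 fold change of -4.72, SE 0.48, edgeR adjusted p = 9.36e-06). The most abundant defence gene, a Bowman-Birk type trypsin inhibitor (PH02Gene20224), had 268, 2563 and 2799 FPKM in mature leaves and 977, 593 and 1164 FPKM in immature leaves. Its groups overlap because mature library 1 lay below all others. The receptor gene RGA2 with the highest level (PH02Gene36365) had 13.6, 7.22 and 6.88 FPKM in mature leaves, against 71.4, 40.7 and 44.8 FPKM in immature leaves (log2 fold change of -2.56, SE 0.41, edgeR adjusted p = 0.000321). Indole-2-monooxygenase-like (PH02Gene50821), in maize the family that makes benzoxazinoid defence compounds, had 26.6, 27.1 and 30.2 FPKM in mature leaves, against 1.15, 0.0888 and 0.475 FPKM in immature leaves (log2 fold change of 5.5, SE 0.59, edgeR adjusted p = 1.48e-05).

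Of 27 aquaporins 4 fell (14.8%) and 2 rose (7.41%), beside 16.2% and 13.2% of all tested genes. The 2 were 1 without immature 3 or any 1 of the mature libraries and 4 without variant mature 3. NIP2-2 (PH02Gene43404), in rice a silicon channel, had 112, 28.9 and 18.3 FPKM in mature leaves, against 6.95, 2.23 and 1.6 FPKM in immature leaves (log2 fold change of 3.87, SE 0.73, edgeR adjusted p = 0.0011). TIP1-1 (PH02Gene03621), a water channel of the vacuole, had 23.8, 13 and 11.4 FPKM in mature leaves, against 120, 201 and 71.3 FPKM in immature leaves (log2 fold change of -3.08, SE 0.5, edgeR adjusted p = 0.000365).

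Regulator families are set beside the 13.2% of all tested genes that rose and the 16.2% that fell. For light and clock genes the counts were 13 of 55 higher (23.6%) and 3 lower (5.45%), but 3 higher in a fit of the 6 libraries alone and 5 with near-alike libraries summed, with 8 and 7 higher without immature 1 and 2 and 8 and 7 without mature 2 and 3, and 5 lower without variant mature 3. Adagio-like protein 1 (PH02Gene02722), a blue-light F-box protein of the clock, had 21.8, 24.2 and 25.9 FPKM in mature leaves, against 13.3, 11.9 and 14.5 FPKM in immature leaves (log2 fold change of 0.77, SE 0.1, edgeR adjusted p = 6.9e-05). The blue-light receptor cryptochrome-1 (PH02Gene42468) had 27.8, 28.8 and 30.1 FPKM in mature leaves, against 16.6, 14.2 and 20.7 FPKM in immature leaves (log2 fold change of 0.66, SE 0.15, edgeR adjusted p = 0.00321, and 0.058 in the fit of the 6 libraries alone). Of 123 WRKY factors 19 rose (15.4%) and 7 fell (5.69%), so that the higher share was near that of all genes, the 7 being 3 without mature 2 and 4 without mature 3. WRKY75 (PH02Gene46266), in Arabidopsis a factor of phosphate starvation and leaf senescence, had 17.4, 17.9 and 14.5 FPKM in mature leaves, against 3.16, 3.16 and 3.97 FPKM in immature leaves (log2 fold change of 2.19, SE 0.43, edgeR adjusted p = 0.00153). NAC genes had 8 of 102 higher and 11 lower, with 15 higher without variant mature 3, and 6 or 7 lower without immature 1, mature 2, mature 3 or any 1 of the variant immature libraries. NAC domain-containing protein 41 (PH02Gene19621) had 104, 144 and 148 FPKM in mature leaves, against 43.6, 41.5 and 57 FPKM in immature leaves (log2 fold change of 1.38, SE 0.28, edgeR adjusted p = 0.00164).

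Of 107 bHLH factors 28 fell (26.2%) and 6 rose (5.61%), the 6 being 1 without immature 1 or immature 3 and 2 without mature 2. Factor bHLH94 (PH02Gene41777) was listed at 0 in all 3 mature libraries and had 15, 12.6 and 14.3 FPKM in immature leaves. Of 162 MYB factors 38 fell (23.5%) and 15 rose (9.26%), with 7 higher in a fit of the 6 libraries alone, and Myb-related protein 306 (PH02Gene50223) was among those that rose, with 24.1, 19.8 and 21.6 FPKM in mature leaves, against 3.68, 5.6 and 4.73 FPKM in immature leaves (log2 fold change of 2.14, SE 0.29, edgeR adjusted p = 8.37e-05). Of 175 leaf growth and meristem factors 36 fell (20.6%) and 15 rose (8.57%), with 21 lower with near-alike libraries summed and 9 higher without immature 2. HOX29 (PH02Gene34818), a homeodomain-leucine zipper factor, had 0.768, 1.5 and 1.74 FPKM in mature leaves, against 18.9, 25.8 and 14.7 FPKM in immature leaves (log2 fold change of -3.98, SE 0.35, edgeR adjusted p = 3.53e-06). Knotted homeobox genes went both ways. Knotted-1-like 3 (PH02Gene23948) had 2.64, 2.66 and 2.5 FPKM in mature leaves, against 42, 26.8 and 16 FPKM in immature leaves (log2 fold change of -3.51, SE 0.42, edgeR adjusted p = 3.55e-05). Knotted-1-like 2 (PH02Gene04791) had 49.6, 48.6 and 46.2 FPKM in mature leaves, against 26.7, 23.1 and 23.1 FPKM in immature leaves (log2 fold change of 0.91, SE 0.12, edgeR adjusted p = 6.78e-05). Of 105 ethylene-responsive factors 25 fell and 11 rose, the 11 being 7 and 6 without immature 1 and 3 and 7 without mature 2 or mature 3, and 3 in a fit of the 6 libraries alone. Ethylene-responsive transcription factor 1 (PH02Gene09592) had 34.6, 45.9 and 46 FPKM in mature leaves, against 122, 122 and 89.8 FPKM in immature leaves (log2 fold change of -1.49, SE 0.17, edgeR adjusted p = 2.71e-05).

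Auxin genes had 34 of 161 members lower (21.1%) and 20 higher (12.4%), beside 16.2% and 13.2% of all tested genes. The lower count was 22 without immature 1 or immature 2 and 21 without mature 2, and the higher count was 11 without immature 1. With near-alike libraries summed 18 were lower and 5 higher. An auxin-repressed protein (PH02Gene21281), whose relatives mark resting tissue, had 232, 316 and 335 FPKM in mature leaves, against 110, 104 and 35 FPKM in immature leaves (log2 fold change of 1.75, SE 0.31, edgeR adjusted p = 0.000744). IAA17 (PH02Gene26638), a repressor of auxin response, had 9.19, 18.6 and 18.8 FPKM in mature leaves, against 54.4, 43.4 and 29.5 FPKM in immature leaves (log2 fold change of -1.55, SE 0.25, edgeR adjusted p = 0.000318).

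Several genes with large rises differed strongly between mature library 1 and the other mature libraries, in either direction. The ORG3-like factor (PH02Gene21058), in Arabidopsis a regulator of iron deficiency responses, had 7.22, 193 and 216 FPKM in mature leaves, against 0.335, 0.524 and 0.449 FPKM in immature leaves (log2 fold change of 8.14, SE 1.18, edgeR adjusted p = 0.000152). Its relative ORG2 (PH02Gene30019) was listed at 0 in all 3 immature libraries and had 0, 18.7 and 20.5 FPKM in mature leaves. In contrast, the SPX membrane protein (PH02Gene01487), annotated for phosphate transport at the vacuole, had 90.1, 16.8 and 5.38 FPKM in mature leaves, against 0.170, 0.217 and 0.111 FPKM in immature leaves (log2 fold change of 7.78, SE 1.25, edgeR adjusted p = 0.000333). The factor MYBAS1 (PH02Gene34464) had 88, 16.7 and 9.12 FPKM in mature leaves, against 0.492, 0.626 and 0.364 FPKM in immature leaves (log2 fold change of 6.22, SE 0.98, edgeR adjusted p = 0.000462). The highest level of these was that of an uncharacterized gene (PH02Gene13580), with 12749, 2715 and 1074 FPKM in mature leaves, against 161, 88.8 and 65.3 FPKM in immature leaves (log2 fold change of 5.7, SE 0.78, edgeR adjusted p = 0.000103). A neuroguidin gene (PH02Gene09418), annotated for maturation of ribosomal RNA, had 1558, 295 and 70.5 FPKM in mature leaves, against 17, 14.5 and 15.2 FPKM in immature leaves (log2 fold change of 5.35, SE 0.8, edgeR adjusted p = 0.000194). All mature values of these genes except ORG2 lay above all immature ones, which was a condition of the choice among the largest changes. Each call held without any 1 of the 6 libraries.

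The step from immature to mature leaves was not the same in the typical plant as in the variant. In the variant the same test called 5924 genes higher (15.8%) and 4351 lower (11.6%). Of the genes that rose, 1690 did so in both plants, 34.1% of the typical and 28.5% of the variant calls, and of the genes that fell, 1888 did so in both, 30.9% of the typical and 43.4% of the variant calls. Opposite calls in the variant were made for 239 of the genes that rose and for 299 of those that fell in the typical plant. A test of the difference between the 2 changes called 6543 genes (17.4%), with 2383 (6.34%) more positive and 4160 (11.1%) more negative in the typical plant. By that test 40 of 139 wall growth genes, 12 of 34 for cellulose and xylan, and 92 of 259 for wax and cutin were more negative in the typical plant, while 4 of the wall growth and 6 of the wax and cutin genes were more positive. For the cytosolic ribosome the balance was turned, with 68 of 286 more positive and 4 more negative, since 203 of these genes fell in the variant. Variant immature libraries were near alike, and with near-alike libraries summed the test of the difference called 224 genes in place of 6543.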

How the data were processed

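Leaf RNA was sequenced after oligo(dT) priming, full-length cDNA synthesis and PCR, with no strand marking or molecular identifiers, per the labels' protocols. Overlapping and antisense genes therefore cannot be told apart. The deposited table gives each gene's estimated count and FPKM per library; cutadapt, FastQC and Salmon are named in the submitters' processing notes, with no versions, and the genome build is not given in the sources used here. Counts, which need not be whole, were rounded. Genes passing edgeR's filter (minimum count 10, minimum total 15) were fitted in edgeR 4.0.16 under R 4.3.3 with TMM scaling, quasi-likelihood tests and 6 group means over all 18 libraries, and p-values were adjusted over all tested genes by Benjamini-Hochberg at 0.05. FPKM as deposited by the authors were used for levels and, as log2(FPKM + 1) or log2(FPKM + 0.1), in limma 3.58.1; DESeq2 1.42.0 was another alternative. On simulated counts for 37595 genes with 200 changed, the test for this comparison recovered 0%, 7.5% and 49.5% of changes of 1.5, 2 and 4-fold. Far more genes, 11058, were called in the data. Adjustment over all genes is stricter where few genes change, so these shares do not give the recovery in the data. Named genes were, per list, the most abundant member and up to 2 called members each way. These called members had the smallest p among those with mean FPKM of at least 10. Added to these were the 15 largest changes each way, genes listed at 0 in a group, and named pigment steps. The 15 were ranked among described, called genes with mean FPKM of at least 10, no count of 0 and groups that did not overlap. Gene lists came from searching the deposited descriptions, and the members and lists were chosen with earlier results of these data known. Replicate numbers did not pair the samples. No sequences were used.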

Additional observations from a re-analysis of the deposited data

Results flagged for a closer look

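The change from immature to mature leaves differed between the typical plant and the variant in 6543 genes by edgeR's test of the difference, 17.4% of those tested. Genes named for their change in the typical plant were picked by that change, so that a difference from the variant is favoured by the choice and their number is no result. The values of the 60 that passed are given as a description. Values below are the typical log2 change minus the variant log2 change. Of the 60, 48 passed without each of the 12 mature and immature libraries in turn, and 8 passed with near-alike libraries summed.

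Of the wall genes below none passed with near-alike libraries summed, where adjusted p lay between 0.0924 and 0.303. The call was lost without 6 of the 12 libraries, left out in turn, for expansin-B3, 8 for endoglucanase 7, 7 for cellulose synthase subunit 3, 5 for dirigent protein 1 and 1 each for expansin-B11 and fasciclin-like protein 1. Differences were -7.13 for expansin-B3 (PH02Gene02936), -9.94 for expansin-B11 (PH02Gene42691), -1.64 for endoglucanase 7 (PH02Gene04869), -3.26 and -4.34 for cellulose synthase subunits 3 and 9 (PH02Gene49673, PH02Gene24930), -7.26 for the mixed-linked glucan synthase (PH02Gene46338) and -1.79 for the xylan glucuronosyltransferase (PH02Gene10692). They were -7.95 for the proline-rich protein (PH02Gene00492), -7.78 for dirigent protein 1 (PH02Gene46616), -7.32 and -6.81 for fasciclin-like proteins 1 and 2 (PH02Gene44294, PH02Gene12804), -2.83 for hydroxycinnamoyltransferase 2 (PH02Gene48963) and -2.37 for the caffeoyl-CoA O-methyltransferase (PH02Gene12695).

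Among genes of the cuticle and photosynthesis, the call was lost without 8 libraries for the lipid-transfer protein and for antenna gene PH02Gene45538, and without 11 for the dehydrogenase. Among cuticle genes, differences were 2.86 and 3.84 for the ketoacyl-CoA synthase 12-like pair (PH02Gene10989, PH02Gene10988), -4.13 for the lipid-transfer protein (PH02Gene35874), and -3.5 and -3.46 for synthases 20 and 1 (PH02Gene25435, PH02Gene14140). In photosynthesis they were -7.41 and -2.25 for antenna genes PH02Gene27441 and PH02Gene45538, -3.36 and -4.05 for the photosystem II polypeptides (PH02Gene09620, PH02Gene08265), 2.43 for the NDH subunit (PH02Gene23115), -1.85 for the dehydrogenase (PH02Gene02213) and -3.43 for the aldolase (PH02Gene46367). Pigment genes gave -1.7 for glutamyl-tRNA reductase (PH02Gene14878), -1.67 for GLK1 (PH02Gene22330), -3 for zeta-carotene desaturase (PH02Gene31041), -1.75 for the zeaxanthin cleavage dioxygenase (PH02Gene22046), -1.37 for STAY-GREEN LIKE (PH02Gene39882) and 0.83 for chlorophyllase-2 (PH02Gene23026).

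Further calls were lost without 8 libraries for the dikinase and without 11 for the trypsin inhibitor. Ribosomal S8-like (PH02Gene42751) gave 1.13 and kinase F-4 (PH02Gene03772) -1.64. Sugar, starch and nitrogen genes gave 1.85 for polyol transporter 5-like (PH02Gene11130), -3.42 for SWEET1a (PH02Gene07867), -4.22 for the invertase (PH02Gene05689), 0.69 for the dikinase (PH02Gene38586), -2.56 for beta-amylase (PH02Gene08693), and -1.69 and -1.84 for cytosolic and plastid glutamine synthetase (PH02Gene04855, PH02Gene00428). Senescence and stress genes gave 1.39 for SENESCENCE-ASSOCIATED GENE 21 (PH02Gene40131), -1.91 for oryzain alpha (PH02Gene45588), 1.52 for PYL9-like (PH02Gene16833), 1.13 for catalase B (PH02Gene19703) and 1.91 for HSP90-5 (PH02Gene05953). Defence genes and channels gave -2.91 for the glucosidase (PH02Gene51009), -4.5 for the trypsin inhibitor (PH02Gene20224), 4.62 for indole-2-monooxygenase-like (PH02Gene50821) and 4.11 for NIP2-2 (PH02Gene43404). Regulators gave 1.21 for adagio-like 1 (PH02Gene02722), -1.8 for IAA17 (PH02Gene26638), -1.46 for ethylene-responsive factor 1 (PH02Gene09592), -3.64 for HOX29 (PH02Gene34818), -2.37 for knotted-1-like 3 (PH02Gene23948), 9.33 for ORG3-like (PH02Gene21058) and 5.15 for MYBAS1 (PH02Gene34464). The uncharacterized gene (PH02Gene13580) gave 5.46 and neuroguidin (PH02Gene09418) 5.36. The tubulin alpha-1 gene (PH02Gene12444) gave -3.11, and SR34 (PH02Gene36211) gave 0.6 with the call lost without 7 libraries.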

How the results depend on the processing

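Counts of calls moved by over 1.5 times under few alternatives. A fit of only the libraries compared called 7210 genes, 2488 of them higher, and 3408 genes for the difference between plants. No libraries agreed within sampling noise, so that planned sum was not run; with near-alike libraries summed instead, a looser rule chosen after seeing the data, 6478 genes were called, 2824 higher and 3654 lower, with 855 in the variant and 224 for the difference; fewer samples enter that fit. Leaving out 1 library at a time gave 8360 to 10871 calls, 3426 to 4778 higher and 4758 to 6093 lower in the typical plant (12900 without variant mature 3), 7377 to 11668 in the variant, and 4312 (without variant mature 2) to 9941 (without variant mature 3) for the difference. Higher calls made up 44.8% in edgeR, 34.5% with only the libraries compared, and 55.4%, 54.2% and 55.5% in limma at a pseudocount of 1, of 0.1, and with no filter; the pseudocount of 0.1 put the median of all genes at 0.11. The cause was not tested. With the replicate number as a block, 10361 genes were called, 9601 in the variant and 5500 for the difference; same-numbered samples correlated at -0.02, -0.0975 and 0.101. None of the 86 called genes named here changed direction under these alternatives. Of uncalled genes, leaving out 1 library moved the second GLK1 gene (PH02Gene18738) from 0.13 to a range of -0.08 to 0.44, the aldolase (PH02Gene46367) from -0.2 to a range of -0.49 to 0.17, and plastid glutamine synthetase (PH02Gene00428) from -0.25 to a range of -0.39 to 0.02. The carotenoid median was 0.04 with near-alike libraries summed in place of -0.13. Of these 86, 77 were called under every alternative; 7 lost their call with near-alike libraries summed and 4 with only the libraries compared, and 4 uncalled genes passed under an alternative. Of list counts, 1097 of 1376 stayed within 1.5 times, and 179 of 688 list medians moved by more than the spread between replicates. Depth limits what can be seen at low levels. Changes under 2-fold were rarely recovered in simulated counts, where far fewer genes changed than were called in the data.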

Other observations

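The 7 lists below were chosen after values were seen, so their counts are descriptions beside the 13.2% of all tested genes called higher and 16.2% called lower. Arabinogalactan and proline-rich wall proteins had 31 of 65 tested members lower and 3 higher, and summed to 93.0, 152 and 176 FPKM in mature leaves, against 3178, 3312 and 1938 FPKM in immature leaves. Tubulins and microtubule proteins, the tracks along which cellulose is laid, had 39 of 83 lower and 6 higher. A tubulin alpha-1 gene (PH02Gene12444) had 7.65, 11.9 and 12.9 FPKM in mature leaves, against 382, 227 and 151 FPKM in immature leaves. Coat and clathrin vesicle proteins, which carry membrane cargo, had 26 of 68 lower and 3 higher, with 17 lower in a fit of the 6 typical libraries alone and 13 with near-alike libraries summed.

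Phosphate supply genes had 31 of 75 higher and 12 lower, with 18 higher without mature 1 and 17 in a fit of the 6 typical libraries alone, and summed to 3088, 1212 and 900 FPKM in mature leaves, against a mean of 572 ± 94.6 FPKM in immature leaves (SD, n = 3), with mature library 1 highest. Iron supply genes had 6 of 33 higher and 4 lower, with 2 lower without immature 1 or any 1 of the mature libraries. Ferric reduction oxidase 7 (PH02Gene02137), in Arabidopsis a chloroplast iron reductase, had 535, 530 and 531 FPKM in mature leaves, against 125, 173 and 253 FPKM in immature leaves. Benzoxazinoid enzymes had 10 of 28 higher and 2 lower, and summed to 81.3, 75.9 and 77.1 FPKM in mature leaves, against 27.7, 21.8 and 19.1 FPKM in immature leaves. Splicing factors had 43 of 141 higher and 2 lower, with 21 higher without immature 1, 28 without mature 3, 16 with near-alike libraries summed and 13 in a fit of the 6 typical libraries alone. The steps were small: the median log2 fold change was 0.38, and SR34 (PH02Gene36211) had 44.2, 59.9 and 61.6 FPKM in mature leaves, against 25.4, 31.1 and 28.3 FPKM in immature leaves.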
